A study of Mus musculus with 2 samples.

Results

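Platelet-derived growth factor (PDGF) is encoded by 4 ligand genes, Pdgfa, Pdgfb, Pdgfc and Pdgfd, and its receptors by 2 genes, Pdgfra and Pdgfrb. The 6 genes were taken by name from the 20211 gene symbols measured, and each stood on 1 row in both libraries. RNA was sequenced from primary perivascular cells of the mouse aorta, called PCs here, with 1 wild-type (WT) library and 1 library of cells that lack KAI1. KAI1, also called CD82, is a membrane protein of the tetraspanin family, and Cd82 is its gene. Both groups had the C57BL/6 background and were grown in DMEM with fetal bovine serum, given as 10% in the labels and as 20% in the culture methods for primary PCs. The groups are WT PCs and Kai1-/- PCs from knockout mice, and they shared every other labelled feature. The study asked which transcripts differ in PCs without KAI1. The sources do not say how many animals or cultures each library came from, and with 1 library per genotype no difference below has a replicate check or a p-value. Antibodies to PDGFRβ and CD31 were used for cytometry and sorting in the study, and whether the sequenced cells had been sorted was not given in the sources used here.

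PDGFs are dimers that bind and pair receptor tyrosine kinases at the cell surface. PDGF-A and PDGF-B are cut by proprotein convertases inside the cell, whereas PDGF-C and PDGF-D are secreted with an inhibitory CUB domain that proteases remove outside it. PDGF-A and PDGF-C act mainly through PDGFRα, a receptor of mesenchymal and fibroblast-like cells, PDGF-D acts mainly through PDGFRβ, and PDGF-B binds both receptors. In vessels, endothelial cells release PDGF-B, and pericytes and smooth muscle cells that carry PDGFRβ are recruited by it.

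The values are RPKM, reads per kilobase of transcript and per 1000000 mapped reads, so levels can be compared between genes. The depth was estimated from the steps in the low values as 29500000 reads for WT and 26700000 for Kai1-/-. Intervals below are exact Poisson limits at 95% for the estimated reads, take the longest annotated transcript, and cover counting error only. The log2 ratio is that of Kai1-/- to WT after 0.1 was added to each RPKM. Of all symbols, 10068 reached a mean RPKM of 1 and were kept. Among these the median log2 ratio was 0.08, and the targeted gene Cd82 was at 12.8 RPKM in WT PCs and 2.62 in Kai1-/- PCs, with a log2 ratio of -2.25. The RPKM values summed to 885190 in WT and 1238893 in Kai1-/-, with 34.5% and 45.3% of the sum in ribosomal protein genes. Scaling both libraries to the metabolic gene Gapdh moved the median of all genes to -0.41.

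The labelled cell type was checked against marker genes. Of the 11 pericyte markers, 3 were kept. Cspg4, which encodes the pericyte proteoglycan NG2, was at 15.4 RPKM in WT and 8.27 in Kai1-/- PCs. The others, the adhesion molecule gene Mcam and Ndufa4l2, were at 4.90 and 5.87 in WT and at 0.264 and 0.493 in Kai1-/-. Mcam and Ndufa4l2 reached the filter, a mean RPKM of 1, through the WT library. Rgs5 was at 0.063 and 0.233 RPKM, Abcc9 at 0.0411 and 0.0303, Kcnj8 at 0 and 0.791, and Vtn was listed at 0 in both libraries. Several defining genes of pericytes were therefore at or near 0 in both libraries, and the cells are called PCs here after their label. The smooth muscle markers summed to 4811 RPKM in WT and 3141 in Kai1-/-, led by Acta2 at 3823 and 2580.

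Pdgfa was the most abundant of the PDGF genes in both libraries. Its level was 91.9 RPKM (89.4 to 94.5) in WT PCs and 35.0 RPKM (33.3 to 36.6) in Kai1-/- PCs. The Kai1-/- library was thus the lower one, by 2.63-fold, a log2 ratio of -1.39. In WT PCs 9.36% of the genes kept had a higher level than Pdgfa, and in Kai1-/- PCs 21.1% did. The counts behind these values were large, about 5045 and 1736 reads, so that counting error left the log2 ratio, here without the added 0.1, between -1.47 and -1.32.

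Pdgfd had the lowest Kai1-/- to WT ratio of the 6 genes. It was at 2.33 RPKM (2.01 to 2.68) in WT PCs and at 0.352 RPKM (0.234 to 0.516) in Kai1-/- PCs. The Kai1-/- level was 15.1% of the WT level, 6.62-fold lower, and the intervals of the libraries did not overlap. On the log2 scale the ratio was -2.43, and only 1.54% of the genes kept had a lower one. About 196 and 27 reads lay behind these levels, which gave a log2 ratio of -2.73 with limits of -3.35 and -2.13 when no constant was added.

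Pdgfc, the other ligand with a CUB domain, was present at nearly one level in both libraries. Its RPKM was 1.30 (1.09 to 1.55) in WT PCs and 1.24 (1.02 to 1.495) in Kai1-/- PCs. The intervals overlapped, and the log2 ratio was -0.07 with limits of -0.46 and 0.30 for counting error. Pdgfb, the ligand that endothelial cells and platelets make, was the lowest of the 6 genes in both libraries. It was at 0.135 RPKM (0.0685 to 0.245) in WT PCs and 0.109 (0.0476 to 0.217) in Kai1-/- PCs, from about 11 and 8 reads. No difference in Pdgfb was detectable at this depth, since the limits of its log2 ratio without the constant ran from -1.83 to 1.13, and it was the one PDGF gene under the filter on mean RPKM.

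The makeup of the ligand transcripts followed from these levels. The 4 ligand genes summed to 95.7 RPKM in WT PCs and 36.7 in Kai1-/- PCs. Pdgfa made up 96.1% of that sum in WT and 95.4% in Kai1-/-. Pdgfd made up 2.44% and 0.961%, and Pdgfc 1.36% and 3.39%. Pdgfc and Pdgfd therefore stood in opposite order in the 2 libraries, Pdgfd being the second ligand in WT PCs and Pdgfc in Kai1-/- PCs.

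Of the receptors, Pdgfrb was the abundant one. It was at 44.7 RPKM (43.6 to 45.7) in WT PCs and at 31.6 RPKM (30.7 to 32.6) in Kai1-/- PCs. The Kai1-/- level was 70.8% of the WT level, a log2 ratio of -0.50 within limits of -0.55 and -0.44. About 6880 and 4410 reads lay behind it, and 19.0% of the genes kept had a lower ratio. Counting error did not span the difference, which was however within 2-fold.

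Pdgfra was at 2.01 RPKM (1.81 to 2.22) in WT PCs and at 0.854 RPKM (0.719 to 1.003) in Kai1-/- PCs. The Kai1-/- library was 2.36-fold lower, a log2 ratio of -1.15, and 6.36% of the genes kept had a lower ratio. Without a constant the log2 ratio was -1.24 with limits of -1.52 and -0.96 for counting error, from about 378 and 145 reads, so that its distance from 2-fold was within that error. With 1 RPKM added in place of 0.1, the log2 ratio of Pdgfra was -0.70. Pdgfrb had 95.7% of the summed receptor RPKM in WT PCs and 97.4% in Kai1-/- PCs.

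**Figure D1:**
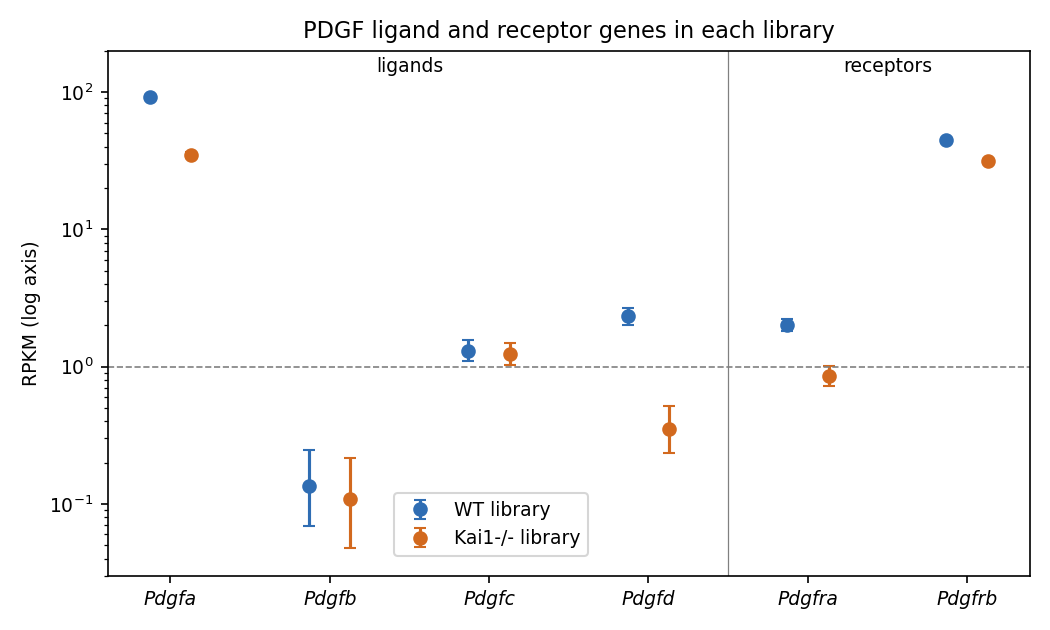
RPKM of the 6 PDGF genes in the WT library (blue) and the Kai1-/- library (orange) on a log axis, with bars for the 95% exact Poisson limits of the estimated reads and a dashed line at the RPKM of 1. The bars of Pdgfb and Pdgfc overlap between libraries, and those of Pdgfa, Pdgfd, Pdgfra and Pdgfrb lie lower in Kai1-/- PCs. The bars cover counting error only, and how many of all genes lie apart in this way was not counted.

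In WT PCs the order of levels was Pdgfa, Pdgfrb, Pdgfd, Pdgfra, Pdgfc and Pdgfb. The intervals of the neighbours Pdgfd and Pdgfra overlapped in WT, and those of the other neighbours did not. In Kai1-/- PCs the order was Pdgfa, Pdgfrb, Pdgfc, Pdgfra, Pdgfd and Pdgfb, with no overlap between neighbours. Pdgfd thus stood at rank 3 in WT PCs and at rank 5 in Kai1-/- PCs.

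Of the 5 PDGF genes that were kept, 3 were more than 2-fold lower in the Kai1-/- library, namely Pdgfa, Pdgfd and Pdgfra, against 7.81% of all genes kept, or 18.4% with both libraries scaled to Gapdh. Pdgfd and Pdgfra, at 0.352 and 0.854 RPKM in Kai1-/- PCs, reached the mean RPKM of 1 through the WT library, where they were higher. Pdgfa was above 1 RPKM in both libraries. None of the 5 was more than 2-fold higher, against 7.98% of all genes kept. All 5 had a log2 ratio below 0, as had 44.9% of all genes kept, and Pdgfb, which was not kept, was at -0.17. Fewer cells of a type and less RNA per cell cannot be told apart in such bulk libraries.

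**Figure D2:**
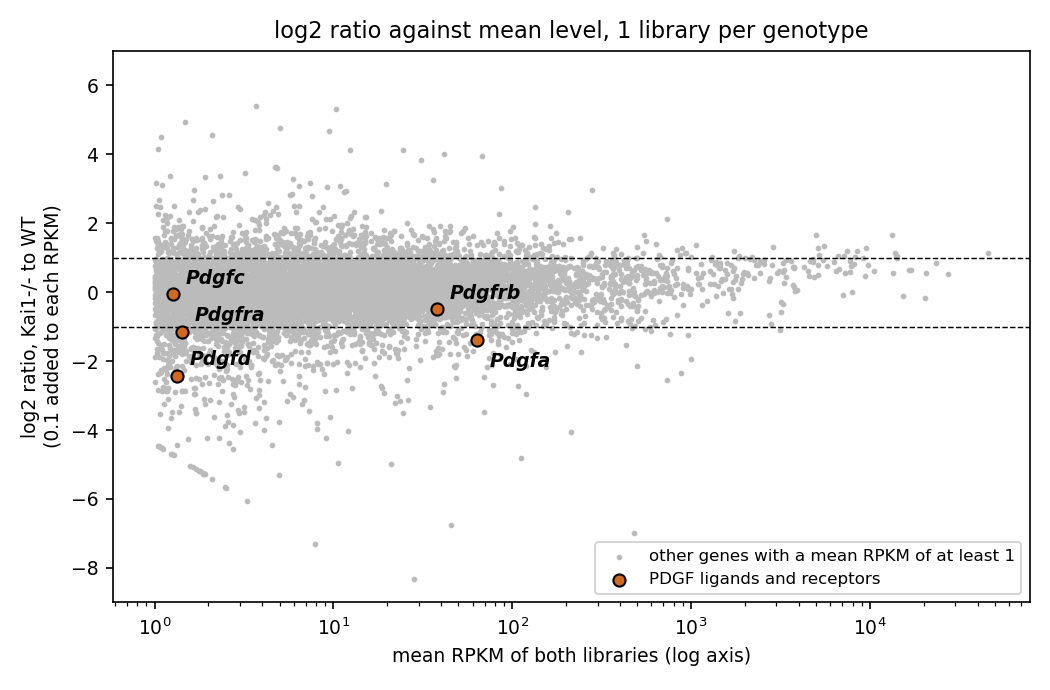
The log2 ratio of Kai1-/- to WT (0.1 added to each RPKM) against the mean RPKM of both libraries on a log axis, for the 10068 genes kept (grey) and the 5 PDGF genes among them (orange), with dashed lines at 2-fold. Pdgfa at -1.39, Pdgfd at -2.43 and Pdgfra at -1.15 lie below the lower line, and Pdgfc and Pdgfrb lie between the lines.

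A ratio of a pair of genes within one library does not depend on how the libraries were scaled. The RPKM of Pdgfrb was 22.2 times that of Pdgfra in WT PCs and 37.1 times in Kai1-/- PCs. Pdgfa was at 45.7 times the level of its main receptor gene Pdgfra in WT and at 40.9 times in Kai1-/-, a smaller shift than the 2.63-fold difference of Pdgfa itself. Against Pdgfrb, Pdgfa was at 2.06 times its level in WT and at 1.11 times in Kai1-/-. The PDGFRα ligand gene Pdgfc stood at 64.9% of the level of Pdgfra in WT PCs and at 146% in Kai1-/- PCs. The PDGFRβ ligand gene Pdgfd stood at 5.22% of Pdgfrb in WT and at 1.11% in Kai1-/-. Pdgfb, the other PDGFRβ ligand gene, was at 0.303% and 0.345% of Pdgfrb.

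Other scalings of the libraries were applied to each gene. Added constants cannot turn the sign of a ratio and each of these scalings lowered all ratios, so only the sizes are compared over the 9 settings. Pdgfa ranged from -1.89 to -1.37 and Pdgfd from -2.83 to -1.30, past 2-fold in all 9. Pdgfra ranged from -1.59 to -0.70 and passed 2-fold in 8. Only the constant of 1 RPKM could have undone the call of these genes, because the other settings left their ratios unchanged or lowered them. The number of settings past 2-fold is therefore no check of these calls. Pdgfrb ranged from -0.995 to -0.48, Pdgfc from -0.52 to -0.04 and Pdgfb from -0.43 to -0.03, and these passed 2-fold in none.

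**Figure D3:**
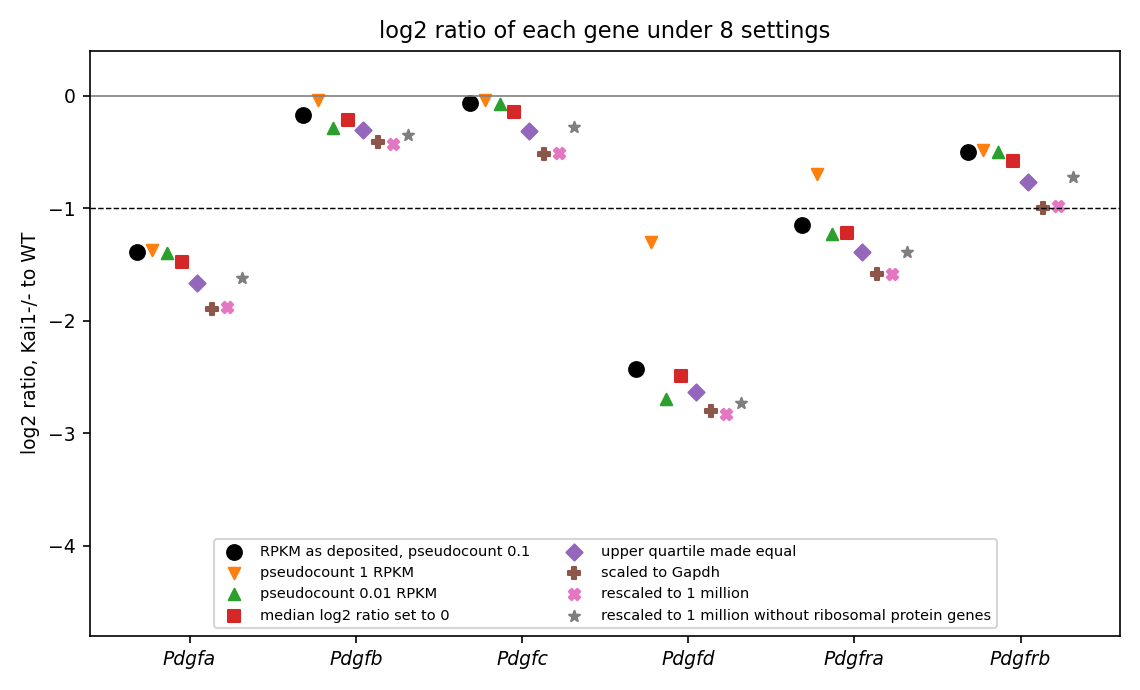
The log2 ratio of Kai1-/- to WT of each PDGF gene under 8 of the 9 settings, 3 added constants and 5 other scalings, each with its own symbol, and a dashed line at 2-fold. Pdgfa and Pdgfd lie past the dashed line in each setting, and Pdgfra crosses the dashed line with an added constant of 1 RPKM.

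The sequence just upstream of a transcription start is shown for Pdgfa, Pdgfd and Pdgfra, the 3 genes past 2-fold, and for Pdgfc, whose level differed by less than counting error. The sequences are those of RefSeq on build GRCm38.p6, and each matched mm9 once. Windows of 250 bases were searched, 5′ to 3′ on the strand of the gene. The Pdgfa window at its second RefSeq start is cut to the 157 bases before the annotated transcript Pdgfa-001, at chr5:139470992-139471148 on the minus strand of mm9. These bases lie in introns of longer Pdgfa transcripts. The Pdgfd window at chr9:6168236-6168485, the Pdgfc window at chr3:80840088-80840337 and the Pdgfra window at chr5:75548026-75548275 are on the plus strand and overlap no annotated gene. Capitals mark a TATA box in Pdgfd and a CArG box, the site of serum response factor, in Pdgfc.
Pdgfa: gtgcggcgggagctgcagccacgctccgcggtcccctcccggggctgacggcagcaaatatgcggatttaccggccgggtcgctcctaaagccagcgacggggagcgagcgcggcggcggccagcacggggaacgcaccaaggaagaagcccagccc
Pdgfd: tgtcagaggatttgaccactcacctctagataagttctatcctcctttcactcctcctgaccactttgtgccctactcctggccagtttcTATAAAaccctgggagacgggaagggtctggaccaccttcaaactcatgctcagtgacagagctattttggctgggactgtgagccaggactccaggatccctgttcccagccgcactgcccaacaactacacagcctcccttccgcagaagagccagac
Pdgfc: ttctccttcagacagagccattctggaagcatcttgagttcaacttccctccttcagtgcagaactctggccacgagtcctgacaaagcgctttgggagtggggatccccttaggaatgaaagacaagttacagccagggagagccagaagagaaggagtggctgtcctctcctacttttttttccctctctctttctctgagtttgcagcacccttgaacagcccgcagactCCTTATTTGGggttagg
Pdgfra: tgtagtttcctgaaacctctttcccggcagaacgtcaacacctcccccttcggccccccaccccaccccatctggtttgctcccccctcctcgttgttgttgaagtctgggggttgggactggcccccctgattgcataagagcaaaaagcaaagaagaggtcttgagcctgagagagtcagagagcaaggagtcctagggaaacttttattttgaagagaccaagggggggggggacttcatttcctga

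The windows differed in base composition. The whole Pdgfa window had a GC content of 72.4% and 28 CpG dinucleotides, and the window at its first start had 66.4%. Over all 32851 mouse promoter windows the median GC content was 52.4%, with quartiles of 45.2% and 61.2%, and the median CpG number was 6. Pdgfd, Pdgfc and Pdgfra lay near that median with 53.6%, 50.8% and 54.4% GC and with 3, 3 and 4 CpGs. 5 motifs were searched on both strands, and no matches of different motifs overlapped. The GC box, the site of SP1 (GGGCGG or CCGCCC), began 93 and 86 bases before the second Pdgfa start and 60 bases before the first, and occurred in 32.7% of all windows. These GC boxes lay within annotated Pdgfa transcripts that start inside the windows, and none was in the printed Pdgfa sequence. The TATA box (TATAAA or TTTATA) began 160 bases before the start of Pdgfd and occurred in 12.4%. The CArG box began 17 bases before the start of Pdgfc and occurred in 1.47%. The EGR1 core (GCGTGGGCG or GCGGGGGCG and their complements) and the E-box (CACGTG), present in 3.06% and 6.02% of all windows, had no match in these windows. Pdgfra had no match to any of the motifs. These matches describe the letters of the windows only.

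On the mouse genome build mm9, Pdgfa spans bases 139451968 to 139473324 of chromosome 5 (minus strand), and Pdgfra spans bases 75548316 to 75594229 of the same chromosome (plus strand). Pdgfb spans bases 79826330 to 79845238 of chromosome 15 (minus strand). On the plus strand, Pdgfc spans bases 80840338 to 81017962 of chromosome 3, Pdgfd bases 6168612 to 6378843 of chromosome 9 and Pdgfrb bases 61204804 to 61244715 of chromosome 18. The receptor genes lie beside genes of related receptor tyrosine kinases. Kit, the receptor of stem cell factor, lies 376712 bases after Pdgfra and was at 0.870 RPKM in WT and 0.203 in Kai1-/- PCs. Csf1r, the receptor of macrophage colony-stimulating factor, lies 20511 bases after Pdgfrb on the same strand and was at 11.7 and 2.66 RPKM, a log2 ratio of -2.10. At the ligand genes, Prkar1b, which encodes a regulatory subunit of protein kinase A, lies 19936 bases from Pdgfa and was at 28.9 and 5.25 RPKM, a log2 ratio of -2.44. Fam20c on its other side was at 26.5 and 18.7. Beside Pdgfb lay Rpl3 at 1063 and 1834 RPKM, a log2 ratio of 0.79, and Cbx7 at 0.439 and 0.542. Around Pdgfc, Glrb was at 0.303 and 0.0805 and Ctso at 0.259 and 0.311. Around Pdgfd, Casp12 was at 1.08 and 0.763 and Dync2h1 at 0.233 and 0.244. Gsx2 before Pdgfra and Cdx1 before Pdgfrb were at 0 in both libraries. Ddi1 lies within the span of Pdgfd on the opposite strand, at 0 and 0.170 RPKM, and whether reads were counted by strand was not given in the sources used here.

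Transcription factors that are known to act on PDGF genes or in mesenchymal cells that carry the receptors were listed. Of 16 such genes 14 were kept, and their median log2 ratio was -0.01, against 0.08 over all genes kept. None of the 14 was past 2-fold, while of all genes kept 7.81% were lower and 7.98% higher. At those shares a list of 14 genes would hold few such genes. Klf4, a zinc-finger factor induced in smooth muscle cells by PDGF, had the highest mean level of the list, at 60.1 RPKM in WT and 33.0 in Kai1-/- PCs. Foxs1, a forkhead factor of perivascular cells, was at 36.1 and 24.6, and Prrx1, a homeobox factor of mesenchyme, at 20.7 and 20.2. Tcf21 was listed at 0 in both libraries.

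The proteases that process PDGFs were then listed. Of 9 genes 6 were kept, with a median log2 ratio of -0.15. Plat, which encodes tissue plasminogen activator, the protease that removes the CUB domain of PDGF-C, was at 8.89 RPKM in WT and 26.1 in Kai1-/- PCs. Its log2 ratio of 1.54 was the only one of the list past 2-fold among genes kept. That is 16.7% of the list, against 7.98% higher and 7.81% lower among all genes kept. Plau, which encodes urokinase, an activator of PDGF-D, was at 5.41 and 3.35 RPKM, a log2 ratio of -0.67. Plaur, the urokinase receptor gene, was at 47.4 and 40.6. The convertase genes, whose products cut PDGF-A and PDGF-B, were near one level in both libraries or lower in Kai1-/-. Furin was at 12.8 and 8.82 RPKM, Pcsk6 at 6.87 and 6.61, and Pcsk7 at 4.87 and 4.61. Pcsk5 at 0.0725 and 0.0268, Tmprss6 at 0.0677 and 0.275, and St14, which encodes matriptase, at 0.0354 and 0, were under the filter. For PDGF-C the ligand gene was thus at nearly one level, while Plat was higher in the Kai1-/- library. For PDGF-D both the ligand gene and Plau had the lower value there, Plau within 2-fold. These are RNA levels, and the cutting of the ligands was not measured.

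Co-receptors and proteins that bind PDGFs formed a list of 10 genes, of which 8 were kept. Of these 2 were more than 2-fold lower and none higher, against 7.81% and 7.98% of all genes kept, and the median log2 ratio was -0.72, against 0.08 over all genes kept. Thbs1, which encodes the matrix protein thrombospondin-1, was at 818 RPKM in WT and 185 in Kai1-/- PCs, with a log2 ratio of -2.14. Ext1, a polymerase of heparan sulfate, to which long PDGF forms bind, was at 55.1 and 26.7. Ndst1, which sulfates the same chains, was at 9.84 and 6.41. Sparc, a matrix protein that binds PDGF-B, was the most abundant of the list at 2261 and 1265. Cspg4 was at 15.4 and 8.27, as given above. The endocytic receptor gene Lrp1 was at 28.6 and 26.9 RPKM, while the neuropilin genes had the higher value in Kai1-/- PCs, Nrp1 with 9.31 and 13.9 and Nrp2 with 2.17 and 2.58. Pdgfrl, which encodes a receptor-like protein, was at 0.482 and 1.18 and under the filter, and A2m was listed at 0 in both libraries.

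Signalling genes that act next to the receptors numbered 36, and 35 had a value and were kept. Of these 2 were more than 2-fold lower, which is 5.71% of the list against 7.81% of all genes kept, and none was higher. A log2 ratio below 0 was found for 25, against 44.9% of all genes kept, with a median of -0.17. The share past 2-fold was thus no larger than over all genes, and the genes concerned are named as values only. Fyn, a kinase of the Src family, was at 11.9 RPKM in WT and 4.12 in Kai1-/- PCs, with a log2 ratio of -1.51. Nck2, an adaptor that binds activated PDGFRβ, was at 2.14 and 0.581, a log2 ratio of -1.72. Nck2 reached the mean RPKM of 1 through the WT library. The most abundant genes of the list were the kinase genes Mapk3 at 156 and 230 RPKM, Akt1 at 141 and 158, and Map2k2 at 110 and 114.

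Negative regulators of the receptors and of the pathway below them numbered 24, and 21 were kept. Of these 5 were more than 2-fold lower, 23.8% of the list against 7.81% of all genes kept, and none was higher. The list median was -0.03 and 11 genes were below 0, against 44.9% of all genes kept. The Sprouty and Spred genes, which encode feedback inhibitors of the Ras pathway, were among those lower. Spry1 was at 6.504 RPKM in WT and 1.19 in Kai1-/- PCs, with a log2 ratio of -2.35, Spry2 at 6.19 and 2.37, and Spred1 at 3.95 and 1.77. The other two of the family were within 2-fold, Spred2 at 8.11 and 5.70 and Spry4, under the filter, at 1.21 and 0.588. Dusp1, a phosphatase of MAP kinases, was at 45.04 and 21.5, and Tgfbr3, the betaglycan gene, at 4.92 and 2.32. Betaglycan is a co-receptor of transforming growth factor beta, so the 5 lower genes include 1 outside the PDGF pathway. The list was chosen with earlier results of these data known, so its share is a description only. Further phosphatase genes with high levels were near one level, Dusp4 at 27.04 and 24.9 and Acp1 at 19.98 and 19.5.

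Genes that growth factors induce within hours numbered 34, and 29 were kept. Past 2-fold were 3 lower genes and 3 higher ones, each 10.3% of the list and near the 7.81% and 7.98% of all genes kept. The median log2 ratio was -0.36. The lower ones were the interleukin gene Il6, at 5.11 RPKM in WT and 1.27 in Kai1-/- PCs, the cyclooxygenase gene Ptgs2, at 8.66 and 2.20, and the matrix protein gene Cyr61, at 165 and 81.6. The higher ones were the kinase gene Sgk1, at 31.2 and 82.9, the chemokine gene Cxcl1, at 64.6 and 154, and the transcription factor gene Egr3, at 0.723 and 1.73. Egr3 reached the mean RPKM of 1 through the Kai1-/- library. The most abundant of the list were Ctgf at 379 and 249, Ier3 at 240 and 285 and the chemokine gene Ccl2 at 262 and 139.

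**Figure D4:**
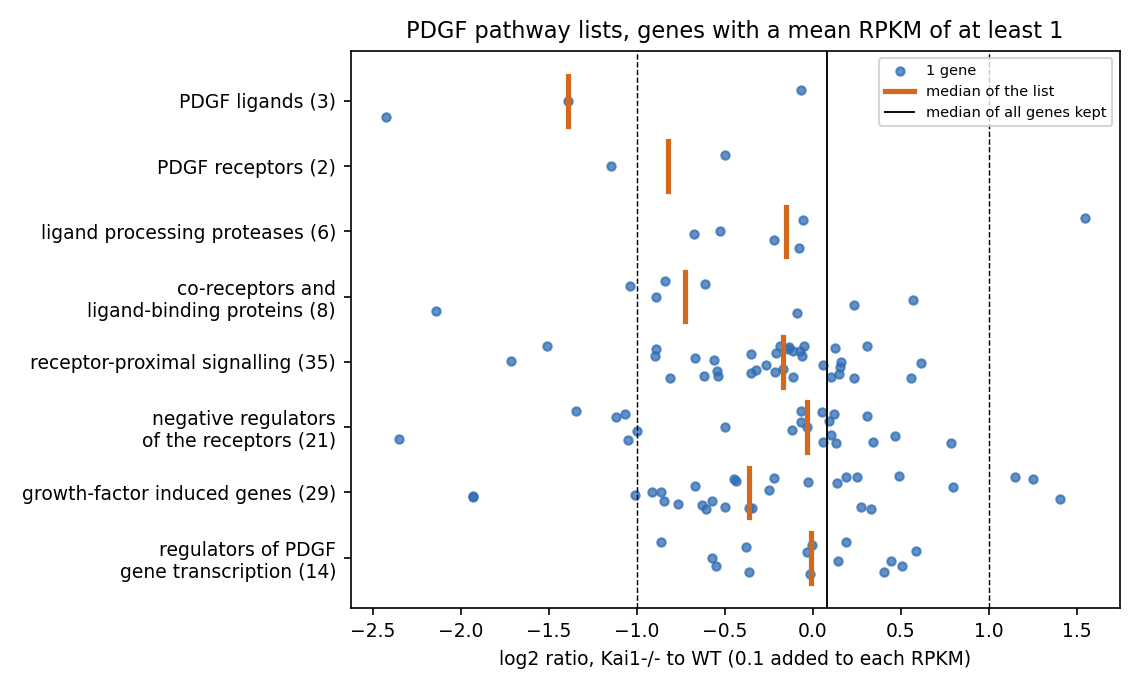
The log2 ratio of Kai1-/- to WT of each kept gene (dots) in 8 lists around the PDGF genes, with the number kept in parentheses, the median of each list (orange), the median of all genes kept (0.08, black line) and dashed lines at 2-fold. The list of co-receptors and ligand-binding proteins has a median of -0.72, and those of negative regulators and of transcription regulators lie at -0.03 and -0.01.

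Markers of other cells that the cultures could hold were read beside the PDGF genes, and their part in the PDGF values was not tested. Of 8 smooth muscle markers 7 were kept and 4 were more than 2-fold lower, with a median log2 ratio of -1.04. Of all genes kept, 7.81% were lower as deposited, or 18.4% scaled to Gapdh. The 4 were counted as deposited, and the list was not counted again after scaling to Gapdh. They were the contractile genes Myh11 at 2.96 and 0.346 RPKM in WT and Kai1-/- PCs, Cnn1 at 120 and 49.2, Lmod1 at 17.3 and 7.41 and Tagln at 633 and 307. Myh11 reached the mean RPKM of 1 through the WT library, where it was higher. Actg2 was at 180 and 155. Pdgfra is typically found in fibroblasts. Of 12 fibroblast and adventitial markers 11 were kept, 4 were more than 2-fold lower and 1 was higher, against 7.81% and 7.98% of all genes kept, with a median of -0.79. The lower ones were Pi16 at 1.98 and 0.384, Dpt at 3.06 and 0.783, Ly6a at 1354 and 569 and Col1a2 at 824 and 377. Pi16 and Dpt reached the mean RPKM of 1 through the WT library, where they were higher. The higher one was Cd34 at 1.44 and 7.76. The highest of the others were Col1a1 at 924 and 534 and Fbln2 at 831 and 428. The list summed to 4512 RPKM in WT and 2511 in Kai1-/- PCs. A log2 ratio below 0 was found for 8 of the 11 fibroblast markers kept, against 44.9% of all genes kept. The same held for 6 of the 7 smooth muscle, 3 of the 3 pericyte and 5 of the 5 macrophage and platelet markers kept. Of the 2 endothelial markers kept, 1 was below 0. Lower values were thus not particular to fibroblast markers. A link to Pdgfra, at 42.4% of its WT level, was not tested. The pericyte list summed to 29.4 and 11.1 RPKM.

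Endothelial cells and platelets are known sources of Pdgfb. Of 13 endothelial markers 11 were under 1 RPKM in each library, and 4 were at 0 in WT, 11 in Kai1-/- and 4 in both. The defining genes Pecam1, Cdh5 and Tek were at 0.413, 0.0267 and 0.409 RPKM in WT and at 0 in Kai1-/- PCs. The 2 kept were Eng, which PCs can also express, at 42.0 and 21.4, and Egfl7 at 2.28 and 7.39. The list summed to 45.6 and 28.8 RPKM, nearly all of it from Eng. Of 12 macrophage and platelet markers 11 had a value and 5 were kept, 4 of them more than 2-fold lower against 7.81% of all genes kept, and the list summed to 146 and 123 RPKM, mostly from Gp1bb at 124 and 117. The macrophage genes Csf1r, given above, and Lyz2, at 3.44 and 1.09, and the platelet genes Pf4, at 2.19 and 0, and Itga2b, at 3.31 and 1.57, were the lower ones. Pf4 reached the mean RPKM of 1 through the WT library, where it was higher. The leukocyte gene Ptprc was at 0.0407 and 0.00697 RPKM, and Emr1 was listed at 0 in both libraries.

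The 2 genes nearest to each PDGF gene in pattern were found by the Euclidean distance over log2(RPKM + 0.1) in the 2 libraries, among genes kept. With 2 libraries such likeness means only that both levels were close. Nearest to Pdgfa were Ppap2a at 90.4 RPKM in WT and 32.4 in Kai1-/- and Prl2c2 at 91.3 and 32.3, at distances of 0.11 and 0.12. Nearest to Pdgfrb were Cebpb at 45.04 and 31.7 and Lonp1 at 44.98 and 31.0, at 0.01 and 0.03. Pdgfra was nearest to Entpd5 and Slc25a36, at 0.01 and 0.04, Pdgfd to Syt17 and Optc, at 0.03 and 0.12, and Pdgfc to Stac2 and Cyp2e1, at 0.02 and 0.05. Pdgfb lay under all genes kept, and its nearest ones, Prickle1 and 2410066E13Rik, were at distances of 3.06 and 3.11.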

How the data were processed

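RNA of PCs was sequenced from 1 library per genotype. Reads were mapped to mm9 by TopHat2 2.0.9 and Bowtie, and the authors deposited an RPKM value for each RefSeq gene in each library. The submitters' processing notes also name Cufflinks, whose version was not given in the sources used here, nor were library type and depth. RPKM shares the reads of a library among its genes, so the value of a gene also depends on how abundant the others are.

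Of 20462 rows, 38 that named no gene were dropped, and values of the 153 symbols on several rows were averaged. Genes that reached a mean RPKM of 1 were kept, and a difference was called past 2-fold on the scale of log2(RPKM + 0.1), which understates differences of low genes. With 1 library per genotype no test was possible. Reads were estimated by fitting low values of 5776 genes with 1 transcript of over 800 bases to whole reads. For a fragment length of 200 bases, 80.8% of 427 low values in WT and 78.8% of 240 in Kai1-/- lay within 0.15 of a whole read. The fit was tested on simulated data. Limits for ratios were exact binomial ones at 95%. Intervals treat reads as independent molecules.

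The genes named were the 6 PDGF genes, Cd82, Gapdh, in each list up to 5 genes past 2-fold in each direction and the 3 of highest mean RPKM, all proteases and co-receptors, and the 2 genes nearest in pattern to each PDGF gene. Other list genes and the genomic neighbours, and the motifs searched, were chosen after their values were seen. The PDGF genes and the lists were chosen with earlier results of these data known. Alternatives were other added constants, filters and scalings, the exclusion of ribosomal protein genes and the sum in place of the mean of repeated symbols. Positions came from GENCODE M1 on NCBI37 and promoters from RefSeq. That table gave none for Pdgfb, and the one for Pdgfrb is not reported here. Python 3.11.15, numpy 2.4.6, pandas 2.3.3, scipy 1.17.1 and matplotlib 3.10.9 were used.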

Additional observations from a re-analysis of the deposited data

How the results depend on the processing

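The signs of the PDGF ratios carry no information on stability, since an added constant cannot turn a sign and each other scaling run lowered all ratios. With 1 RPKM added in place of 0.1, the log2 ratio of Pdgfd was -1.30, that of Pdgfra -0.70 and the median of the receptors less that of all genes -0.66, so that 2 in place of 3 PDGF genes passed 2-fold. Ratios within a library moved most under that constant. In WT PCs they were -3.92 for Pdgfra to Pdgfrb, 4.95 for Pdgfa to Pdgfra, -5.33 for Pdgfb to Pdgfrb and -3.78 for Pdgfd to Pdgfrb, and in Kai1-/- PCs -4.14, 4.28, -4.88 and -4.59. With the median of all genes set to 0, Pdgfa was at -1.47 and Pdgfrb at -0.58. With equal upper quartiles, Pdgfa was at -1.67 and Pdgfrb at -0.77, and past 2-fold were 1251 lower and 447 higher genes. Scaled to Gapdh, Pdgfa was at -1.89, Pdgfc at -0.52, Pdgfra at -1.59 and Pdgfrb at -0.995, with 1856 genes lower and 278 higher. Rescaled to a sum of 1000000, they were at -1.88, -0.51, -1.59 and -0.98, with 1822 genes lower and 287 higher. Without ribosomal protein genes, Pdgfa was at -1.62 and Pdgfrb at -0.72, with 498 genes higher. Without a filter, 1878 genes were lower and 1205 higher, and the medians less that of all genes were -0.78 for the ligands, -0.35 for the co-receptors and -0.71 for the related receptor kinases. With a mean RPKM of at least 5, 350 genes were lower and 511 higher.

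As deposited, 786 genes were lower and 803 higher, so that the lower ones were 49.5% of the calls. Their share was 73.7% with equal upper quartiles, 87.0% scaled to Gapdh, 86.4% rescaled to a sum of 1000000 and 69.9% without ribosomal protein genes, whose medians of all genes were -0.19, -0.41, -0.40 and -0.14. Of the other settings of each value, 32 of 48 for the PDGF genes and 16 of 24 within a library moved by less than counting error. Part of the 32 was fixed in advance. Summing repeated symbols could not move the PDGF genes, each on 1 row. The counting error of Pdgfb was wider than any of its shifts. The count is therefore no measure of stability. The lists were compared as medians less the median of all genes, from which a common scaling cancels by construction. The list medians in the report are not so centred and shift with the median of all genes. Depth limits Pdgfb, with about 11 and 8 reads. No paired analysis was possible because the design holds 1 library of each genotype, and no library could be left out.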

Other observations

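Receptor kinases of the same structural classes as the PDGF receptors, and the ligands of those kinases and of the VEGF family, were read in the same libraries. Of 6 kinase genes 2 were kept. Csf1r was at 11.7 RPKM in WT and 2.66 in Kai1-/- PCs, and Flt1, which encodes VEGF receptor 1, at 1.23 and 1.01. Kit was at 0.870 and 0.203, Flt4 at 0.1496 and 0.106 and Kdr, which encodes VEGF receptor 2, at 0.122 and 0, and Flt3 was listed at 0 in both libraries. Csf1, the ligand gene of Csf1r, was the most abundant of the 9 related ligand genes with a value, at 428 and 169 RPKM, a log2 ratio of -1.34 close to that of Pdgfa. The placental growth factor gene Pgf was at 11.2 and 3.27, a log2 ratio of -1.75. Kitl, the ligand gene of Kit, was the only one more than 2-fold higher, at 0.977 and 2.32. Kitl reached the mean RPKM of 1 through the Kai1-/- library. Csf1 and Pgf, both past 2-fold in the other direction, made up 22.2% of the 9 ligand genes, and Kitl 11.1%. The shares over the whole set kept were 7.81% and 7.98%. In so short a list a single gene is 11.1%, so these ligands are named as values only. Figf, which encodes VEGF-D, was at 60.9 and 59.4 RPKM, and Vegfa at 45.2 and 35.2.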
